A study of Mus musculus with 33 samples.

Results

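The 10 genes described here code for the ligands, binding proteins, receptors and adaptors through which insulin and the insulin-like growth factors reach the kinase Akt. They are Insr, Igf1r, Igf1, Igf2, Irs1, Irs2, Pik3r1, Igfbp3, Igfbp4 and Igfbp5, chosen by name out of the 23420 genes of the count files. All 10 passed the filter on low counts, which left 13955 genes for testing.

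RNA came from the quadriceps of adult male C57BL6 mice. The knockout (KO) mice were null for Actn3, which encodes alpha-actinin-3, a protein that crosslinks actin at the Z-disc of fast fibres, and the wild-type (WT) mice kept it. Dexamethasone sodium phosphate, a synthetic glucocorticoid, was injected once into the peritoneum at 20 mg/kg, controls had saline, and muscle was taken after 3 h or 24 h. Each of the 4 dexamethasone groups (KO and WT, 3 h and 24 h) had 5 libraries, and the saline groups had 3 libraries in KO at 3 h, 3 in WT at 3 h, 3 in KO at 24 h and 4 in WT at 24 h. The labels tie the null allele to no tissue-specific driver, and whole muscle was sequenced, so every cell type of the tissue contributed RNA. The labels do not state that each library is a separate mouse, so p-values measure the spread between libraries. In every comparison of 3 h with 24 h, time after injection and clock time of harvest cannot be told apart from the labels.

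Insulin binds the insulin receptor and the insulin-like growth factors bind the IGF1 receptor, both tyrosine kinases that phosphorylate the adaptors IRS1 and IRS2. The adaptors recruit phosphoinositide 3-kinase, whose regulatory subunit p85 alpha is the product of Pik3r1, and the lipid it makes brings Akt to the membrane. IGF binding proteins hold the growth factors outside the cell and set how much reaches the receptor. In muscle this route drives glucose uptake and protein synthesis and restrains protein breakdown, and glucocorticoids are known to oppose it.

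Gene counts ran from 19.7 M to 42.8 M per library, with a median of 29.9 M. Actn3 had 31.9 to 84.1 CPM, the counts per M of scaled library total, in KO and 6959 to 9703 CPM in WT libraries. Of 8 genes known to respond to glucocorticoids, 7 rose at 3 h in KO and 7 in WT. At 24 h, 1 of the 8 was higher (Fkbp5) and 2 were lower in each genotype, Per1 (-1.03 on the log2 scale in KO and -0.97 in WT) and Sgk1 (-1.05 in KO and -0.93 in WT). Of the tissue markers checked, 10 muscle fibre genes summed to 119400 to 204000 CPM, and 5 liver genes to at most 0.869 CPM with Serpina1c at 0 in every library. All CPM given here are scaled by the trimmed mean of M-values (TMM). Fold changes, their standard errors (SE) and adjusted p-values come from edgeR's quasi-likelihood test with Benjamini-Hochberg adjustment over all 13955 genes, and a gene was called at an adjusted p under 0.05.

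Irs1 and Igfbp4 turned out to be the members whose response to dexamethasone changed most between the times, and Irs2 is the other IRS adaptor. Their promoters are therefore shown, as RefSeq gives them on GRCm38.p6, from 250 bases before to 50 after the start of transcription, 5′ to 3′ along the gene. The Irs1 window is chr1:82291390-82291689 and the Irs2 window chr8:11008880-11009179, both on the minus strand, with capitals marking the E-box CACGTG. The Igfbp4 window is chr11:99040994-99041293 on the plus strand, with capitals marking TATAAA.
Irs1: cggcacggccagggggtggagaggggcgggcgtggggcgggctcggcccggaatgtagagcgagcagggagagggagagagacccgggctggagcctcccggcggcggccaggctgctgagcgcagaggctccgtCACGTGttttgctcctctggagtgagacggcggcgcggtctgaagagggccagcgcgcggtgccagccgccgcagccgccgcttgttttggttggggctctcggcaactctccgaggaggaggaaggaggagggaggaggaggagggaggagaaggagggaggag
Irs2: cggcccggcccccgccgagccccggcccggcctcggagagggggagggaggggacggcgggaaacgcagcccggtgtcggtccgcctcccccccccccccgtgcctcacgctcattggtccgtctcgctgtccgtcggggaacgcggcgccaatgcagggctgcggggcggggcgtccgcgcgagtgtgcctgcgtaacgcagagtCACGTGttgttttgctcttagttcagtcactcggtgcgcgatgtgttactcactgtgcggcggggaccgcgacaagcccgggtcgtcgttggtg
Igfbp4: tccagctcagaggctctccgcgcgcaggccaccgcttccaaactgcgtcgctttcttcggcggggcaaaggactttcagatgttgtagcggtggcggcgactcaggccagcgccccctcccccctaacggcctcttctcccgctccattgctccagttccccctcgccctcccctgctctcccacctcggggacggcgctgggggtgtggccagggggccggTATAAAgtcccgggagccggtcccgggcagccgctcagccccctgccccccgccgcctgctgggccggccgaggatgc
The E-box began at position -115 from the RefSeq start in Irs1 and at -44 from that in Irs2. Windows were found for 9 of the 10 genes, 13 in all since Igf2 and Pik3r1 have several, and none for Insr. On either strand, CACGTG occurred in the windows of Irs1 and Irs2 alone among the 13 and in 7.15% of the 32851 promoter windows of the genome. The motif AGAACA, 1 arm of the glucocorticoid receptor site, occurred in 1 Igf2 window and in 19.0% of all windows. The full site, AGAACA then 3 free bases then TGTTCT, which holds that arm, occurred in none of the 13 and in 0.00913% of all, and the FoxO site GTAAACA in none of the 13 and in 3.65% of all. TATAAA occurred in 1 window each of Igfbp4 and Pik3r1 and in 13.6% of all windows, and the GC box GGGCGG in 6 of the 13 windows and 35.7% of all. These windows are short and rich in G and C in most members (71.3% in Irs1, 72.0% in Irs2 and 71.3% in Igfbp4), and a match describes letters, not binding.

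Levels between genes were compared as CPM per kb of exon. Igfbp5, which encodes the most abundant IGF binding protein transcript of this set, stood far above the others, with a median of 150.1 CPM per kb over 33 libraries and a range of 36.5 to 268. It exceeded the gene ranked next, Igfbp4, in 33 of 33 libraries. Igfbp4 (median 11.2 CPM per kb) and Insr (median 11.2 CPM per kb) had no fixed order over all groups, with Igfbp4 above Insr in 15 of 33 libraries. The order varied with the group. Igfbp4 was above Insr in every WT saline library at 24 h and below it in every dexamethasone library at 24 h. Irs1 (8.76) and Pik3r1 (8.72) likewise exchanged places, with Irs1 above Pik3r1 in 16 libraries. Igfbp3 (5.05), Igf1 (4.25) and Igf2 (3.99) followed with overlapping ranges, then Irs2 (2.58) and, lowest by median, Igf1r (1.77 CPM per kb). Irs2 was above Igf1r in 26 of 33 libraries. The exceptions were all dexamethasone libraries at 24 h, among them every KO one. Insr mRNA therefore lay above Igf1r mRNA per length in this muscle, with ranges of 6.95 to 15.4 and 1.09 to 3.05 CPM per kb that did not overlap.

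**Figure D1:**
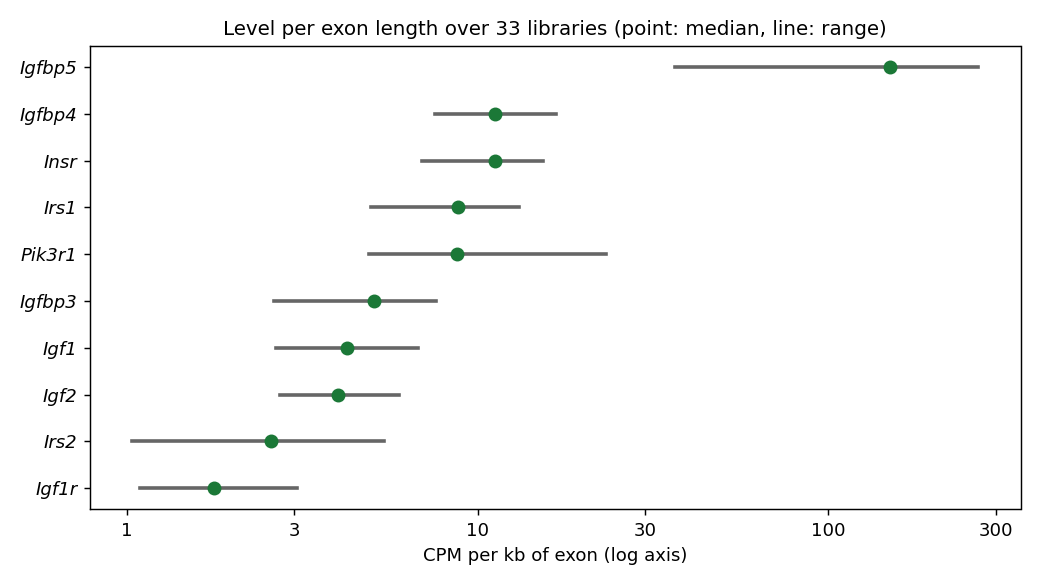
CPM per kb of exon on a log axis for the 10 genes, with the median over 33 libraries as a point and the range as a line. Igfbp5 stands alone at 36.5 to 268 CPM per kb, and the ranges of most neighbours below it overlap.

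Exon lengths and positions are from GENCODE vM21 on GRCm38. Irs1 lies on chromosome 1 (82233101 to 82291416, minus strand), Igfbp4 on chromosome 11 (99041244 to 99054392, plus strand), Igfbp5 on chromosome 1 (72857932 to 72874884, minus strand) and Insr on chromosome 8 (3122061 to 3279617, minus strand). Irs2 lies on chromosome 8 (10984681 to 11008458, minus strand). The RefSeq promoter window of Irs2 shown above lies wholly upstream of the gene as annotated here. Counting was not stated to use strand, so reads in exons that overlap another gene cannot be assigned with certainty. Such exons make up 64.5% of the Igf2 exon length, shared with Gm49394 on the same strand and Igf2os on the opposite strand, 30.9% of Irs1, shared with Gm9747 on the opposite strand, and 2.56% of Irs2. The other 7 genes share none. Gm49394, Igf2os and Gm9747 have no counts under those names, so reads from them may be counted for Igf2 or Irs1. The levels per kb and the fold changes of Igf2 and Irs1 are uncertain to that extent.

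Among the adaptors, Irs1 mRNA was lower than saline 3 h after dexamethasone in both genotypes, and in WT it was higher than saline by 24 h. At 3 h, Irs1 had 53.8, 53.6, 83.6, 51.2 and 78.6 CPM in KO dexamethasone muscle, against 91.8, 94.3 and 120.1 CPM in KO saline muscle. It had 48.3, 78.4, 71.1, 49.7 and 45.4 CPM in WT dexamethasone muscle, against 85.1, 93.5 and 79.7 CPM in WT saline muscle. Every dexamethasone library lay below every saline library of its genotype, although 2 dexamethasone libraries of each genotype came close. The fall was 1.59-fold in KO (log2 fold change -0.67, SE 0.161, adjusted p = 0.00283) and 1.47-fold in WT (log2 fold change -0.56, SE 0.162, adjusted p = 0.0153). The WT call is fragile: the adjusted p was 0.096 without saline replicate 2, and 0.0507, 0.0526 and 0.0534 without dexamethasone replicates 1, 4 and 5.

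At 24 h, Irs1 had 93.6, 80.1, 96.8, 86.5 and 84.8 CPM in KO dexamethasone muscle, against 78.2, 96.1 and 68.2 CPM in KO saline muscle. It had 107, 100.1, 117, 107 and 93.1 CPM in WT dexamethasone muscle, against 69.3, 68.5, 63.1 and 52.7 CPM in WT saline muscle. The WT groups were far apart and the KO groups overlapped. Irs1 rose 1.65-fold in WT (log2 fold change 0.73, SE 0.153, adjusted p = 0.00135), whereas in KO the log2 fold change was 0.13 (SE 0.165, adjusted p = 0.652). The difference between the genotypes was not called: it was -0.60 on the log2 scale (KO minus WT, SE 0.222, 95% interval -1.05 to -0.14, unadjusted p = 0.0114, adjusted p = 0.777). The change of the dexamethasone effect with time was called in both genotypes, at 0.80 in KO (24 h minus 3 h, SE 0.232, adjusted p = 0.0206) and 1.28 in WT (SE 0.222, adjusted p = 8.3e-05). The KO value was no longer called without saline 3 h replicate 3 (adjusted p = 0.0904), saline 24 h replicate 1 (0.0514) or saline 24 h replicate 3 (0.0876). Mean Irs1 in saline muscle was 102.1 CPM at 3 h and 80.8 CPM at 24 h in KO. In WT saline muscle it was 86.1 and 63.4 CPM. These saline levels enter the change with time.

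Irs2, the other adaptor, was the only member called between the times in saline muscle. Saline libraries at 24 h had 16.8, 18.1 and 12.7 CPM in KO and 17.1, 15.99, 13.9 and 9.02 CPM in WT. Saline libraries at 3 h had 21.9, 24.5 and 25.7 CPM in KO and 34.2, 20.0 and 32.6 CPM in WT. All 24 h saline libraries lay below all 3 h ones, and Irs2 was 1.77-fold lower at 24 h (log2 difference -0.82, SE 0.162, adjusted p = 0.00577). It was the 1 member called of 10, where 2.47% of all tested genes were called. Igfbp4 (log2 difference 0.34, SE 0.0957, adjusted p = 0.0519) and Irs1 (-0.39, SE 0.125, adjusted p = 0.0881) came next. At an unadjusted p under 0.05 there were 5 members, and 2479 of the 13955 genes. After dexamethasone at 3 h, Irs2 had 26.6, 15.2, 16.3, 18.4 and 14.3 CPM in KO and 29.5, 21.1, 17.3, 23.4 and 20.3 CPM in WT muscle. Both sets overlap with saline, at log2 fold changes of -0.40 in KO (adjusted p = 0.191) and -0.38 in WT (adjusted p = 0.248); without KO dexamethasone replicate 1 the KO value was -0.58 (adjusted p = 0.0368). At 24 h dexamethasone libraries had 10.8, 13.9, 10.4, 6.54 and 13.0 CPM in KO and 14.5, 14.1, 13.8, 14.3 and 11.8 CPM in WT, and neither contrast was called (log2 fold change -0.54 in KO, adjusted p = 0.104, and -0.04 in WT, adjusted p = 0.939).

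The receptors were higher after dexamethasone at 24 h, Insr in both genotypes. At 24 h, Insr had 167, 174, 171, 212 and 209 CPM in KO dexamethasone muscle, against 140, 146 and 121 CPM in KO saline muscle. It had 174, 175, 207, 182 and 155 CPM in WT dexamethasone muscle, against 137, 129.5, 109 and 95.5 CPM in WT saline muscle. The dexamethasone libraries lay above all saline libraries in both genotypes. Insr rose 1.38-fold in KO (log2 fold change 0.46, SE 0.112, adjusted p = 0.00677) and 1.51-fold in WT (log2 fold change 0.60, SE 0.103, adjusted p = 0.000153). The KO call was lost without saline replicate 3 (adjusted p = 0.0674). At 3 h the fold changes were near 0 on the log2 scale, at 0.09 in KO (adjusted p = 0.618) and 0.05 in WT (adjusted p = 0.82). The change with time was called in WT (0.55, SE 0.15, adjusted p = 0.00962) and not in KO (0.37, SE 0.157, adjusted p = 0.143).

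Igf1r at 24 h had 34.1, 51.2, 28.2, 38.7 and 47.0 CPM in KO dexamethasone muscle, against 21.3, 37.4 and 23.4 CPM in KO saline muscle. It had 30.4, 36.3, 47.5, 39.9 and 26.0 CPM in WT dexamethasone muscle, against 28.8, 26.0, 22.5 and 18.2 CPM in WT saline muscle. The groups overlapped in both genotypes. Igf1r rose 1.505-fold in WT (log2 fold change 0.59, SE 0.176, adjusted p = 0.0216), and the KO value of 0.54 (SE 0.193, adjusted p = 0.0675) was not called. Single libraries moved these calls: the WT adjusted p was 0.0693, 0.0904 and 0.0854 without saline replicate 3, saline replicate 4 and dexamethasone replicate 3, while the KO adjusted p was 0.0152 without saline replicate 2 (log2 fold change 0.83) and 0.0253 without dexamethasone replicate 3. The KO value was also called with DESeq2 (0.54, adjusted p = 0.0447), with limma-voom (0.60, adjusted p = 0.0262), with the name series of the libraries as a covariate (0.63, adjusted p = 0.042) and against saline of both times (0.44, adjusted p = 0.0374). At 3 h the log2 fold change was -0.04 in KO (adjusted p = 0.921) and 0.25 in WT (adjusted p = 0.445).

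Pik3r1, which codes for p85 alpha, was not called for dexamethasone at either time in either genotype. At 3 h it had 70.0, 81.9, 71.8, 97.2 and 78.5 CPM in KO dexamethasone muscle, against 68.9, 68.1 and 63.3 CPM in KO saline muscle. These groups did not overlap, but the log2 fold change of 0.26 (SE 0.256, adjusted p = 0.529) was about the size of its error. That error rests on the spread within all 8 groups, not on these libraries alone. None of 8 alternative fits called Pik3r1 in this contrast. In WT at 24 h the spread was wide, with 234, 154, 126, 106 and 71.5 CPM after dexamethasone, against 145, 200.4, 83.4 and 98.0 CPM after saline.

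**Figure D2:**
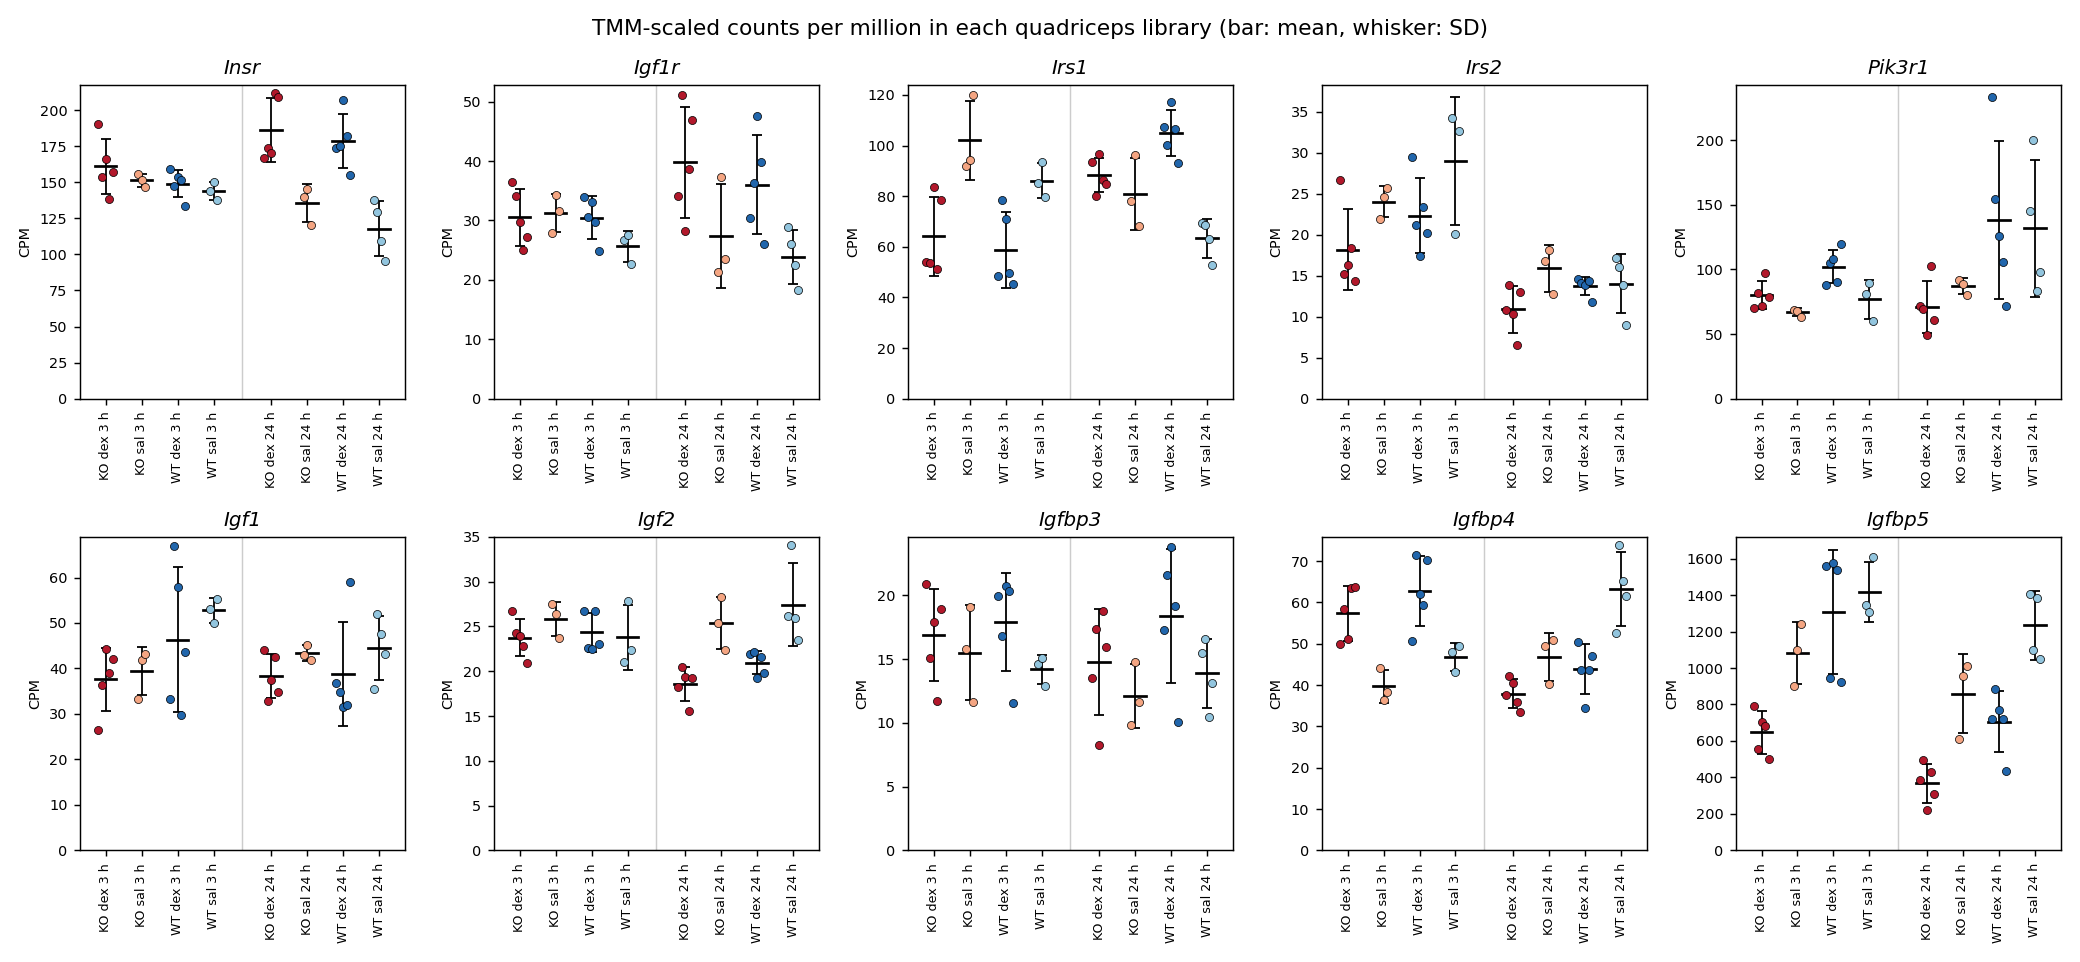
CPM of each member in every library, with the 3 h groups left of the grey line and the 24 h groups right of it; dots are libraries, bars are group means and whiskers SD. Irs1 lies below saline at 3 h in both genotypes, Insr lies above saline at 24 h in both, and Igfbp5 in KO dexamethasone muscle at 24 h reaches down to 219 CPM.

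Of the binding proteins, Igfbp4 differed from saline of the same time in the direction opposite to Irs1, higher at 3 h and, in WT, lower at 24 h. At 3 h, Igfbp4 had 49.97, 58.4, 51.1, 63.5 and 63.8 CPM in KO dexamethasone muscle, against 44.2, 36.3 and 38.4 CPM in KO saline muscle. It had 50.6, 71.5, 62.1, 59.5 and 70.2 CPM in WT dexamethasone muscle, against 48.1, 43.1 and 49.5 CPM in WT saline muscle. The groups did not overlap in either genotype. The rise was 1.45-fold in KO (log2 fold change 0.53, SE 0.126, adjusted p = 0.00252) and 1.34-fold in WT (log2 fold change 0.42, SE 0.126, adjusted p = 0.0187). The WT call was lost without saline replicate 2 (adjusted p = 0.127) and with scaling by library totals (adjusted p = 0.0843).

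At 24 h, Igfbp4 had 37.5, 42.1, 40.6, 35.9 and 33.5 CPM in KO dexamethasone muscle, against 49.4, 40.3 and 51.0 CPM in KO saline muscle. It had 50.4, 43.7, 34.3, 43.7 and 47.1 CPM in WT dexamethasone muscle, against 52.5, 73.9, 65.1 and 61.6 CPM in WT saline muscle. The WT groups did not overlap, and Igfbp4 fell 1.44-fold (log2 fold change -0.53, SE 0.114, adjusted p = 0.00167). In KO 1 saline library lay within the dexamethasone range, and the log2 fold change of -0.31 (SE 0.124, adjusted p = 0.11) was not called. The change with time was called in both, at -0.84 in KO (SE 0.177, adjusted p = 0.00123) and -0.95 in WT (SE 0.17, adjusted p = 0.000128). Saline levels enter this change: mean Igfbp4 in saline muscle was 39.7 CPM at 3 h and 46.9 CPM at 24 h in KO. In WT saline muscle it was 46.9 and 63.2 CPM. WT dexamethasone muscle at 24 h, at a mean of 43.8 CPM, lay near WT saline muscle at 3 h.

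Igfbp5 showed the lowest levels after dexamethasone in KO muscle. At 3 h it had 790.3, 554, 706, 684 and 502 CPM in KO dexamethasone muscle, against 902, 1101 and 1244 CPM in KO saline muscle. It had 1558, 944, 1576, 1535 and 926 CPM in WT dexamethasone muscle, against 1343, 1305 and 1608 CPM in WT saline muscle. The KO groups were apart and the WT groups overlapped. Igfbp5 fell 1.67-fold in KO (log2 fold change -0.74, SE 0.221, adjusted p = 0.0169), against a WT log2 fold change of -0.12 (SE 0.224, adjusted p = 0.793). The difference between genotypes was -0.63 (SE 0.319, 95% interval -1.27 to 0.02, unadjusted p = 0.0587, adjusted p = 0.999). The KO call was lost without saline replicate 2 (adjusted p = 0.0635), saline replicate 3 (0.0968) or dexamethasone replicate 5 (0.0515).

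At 24 h, Igfbp5 had 388, 496, 219, 428 and 307 CPM in KO dexamethasone muscle, against 613, 954 and 1011 CPM in KO saline muscle. It had 721, 883, 772, 721 and 436 CPM in WT dexamethasone muscle, against 1408, 1099, 1385 and 1047 CPM in WT saline muscle. Dexamethasone libraries lay below saline libraries in both genotypes. The fall was 2.34-fold in KO (log2 fold change -1.23, SE 0.221, adjusted p = 0.000363) and 1.75-fold in WT (log2 fold change -0.81, SE 0.206, adjusted p = 0.00758), and both calls held without each library in turn. The difference between genotypes at 24 h was -0.42 (SE 0.305, 95% interval -1.04 to 0.20, adjusted p = 0.782).

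Markers of fibroblasts, which are among the cells that make IGF binding proteins, moved alongside at 24 h. The 10 fibroblast markers summed to 1227 to 1478 CPM in KO dexamethasone muscle, against 1686 to 1839 CPM in KO saline muscle. They summed to 1299 to 1443 CPM in WT dexamethasone muscle, against 1596 to 2074 CPM in WT saline muscle. Of the 10, 3 fell in KO and 5 in WT, none rose, and none was at 0 in every library. For scale, 5.02% of all tested genes were called lower at 24 h in KO and 6.98% in WT, and 5.87% and 6.77% higher. At 3 h the shares were 8.51% lower in KO and 8.16% in WT, and 9.02% and 6.77% higher. Of 9 macrophage markers, 1 fell in KO and 7 in WT, at summed levels of 228 to 265 CPM in KO dexamethasone muscle, against 242 to 315 CPM in KO saline muscle, and of 224 to 268 CPM in WT dexamethasone muscle, against 285 to 523 CPM in WT saline muscle. At 3 h the fibroblast markers summed to 1508 to 2176 CPM in KO dexamethasone muscle, against 1776 to 2161 CPM in KO saline muscle, and to 1430 to 2170 CPM in WT dexamethasone muscle, against 1827 to 2104 CPM in WT saline muscle; 2 rose and 1 fell in KO, and 2 fell in WT. The part of these cells in the Igfbp4, Igfbp5 and Igf2 results was not tested, and in bulk muscle fewer cells of a type and less RNA per cell cannot be told apart. At 3 h, satellite cell markers, from the stem cells of muscle, summed to 27.9 to 30.7 CPM in KO dexamethasone muscle, against 44.6 to 51.5 CPM in KO saline muscle, and 5 of 7 fell; in WT they summed to 21.5 to 27.9 CPM after dexamethasone, against 40.5 to 43.7 CPM after saline, and 3 of 7 fell. Of 10 endothelial markers at 3 h, 2 rose and 3 fell in KO and 1 rose and 4 fell in WT, with sums of 449 to 587 CPM in KO dexamethasone muscle, against 558 to 673 CPM in KO saline muscle, and of 483 to 595 CPM in WT dexamethasone muscle, against 563 to 693 CPM in WT saline muscle. Of 8 smooth muscle and pericyte markers, 3 fell in each genotype, with sums of 702 to 963 CPM in KO dexamethasone muscle, against 879.9 to 927 CPM in KO saline muscle, and of 680.4 to 858 CPM in WT dexamethasone muscle, against 816 to 944 CPM in WT saline muscle. Of 7 adipocyte markers, 2 rose in KO, with sums of 228 to 388 CPM after dexamethasone, against 154 to 209.5 CPM after saline, and 2 fell in WT, with sums of 158 to 539 CPM after dexamethasone, against 201 to 525.5 CPM after saline. The part of these cells in the 3 h results was not tested.

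Igfbp3, which codes for the main carrier of IGFs in blood, was not called in any dexamethasone contrast. It ran from 8.23 to 23.8 CPM over all libraries, and its log2 fold changes were 0.12 and 0.33 at 3 h and 0.28 and 0.40 at 24 h in KO and WT, with adjusted p-values of 0.771, 0.413, 0.495 and 0.245.

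The ligands differed from each other. Igf2 was lower after dexamethasone at 24 h in both genotypes, and Igf1, the ligand tied to growth hormone, was not called. At 24 h, Igf2 had 18.2, 20.5, 19.3, 15.6 and 19.3 CPM in KO dexamethasone muscle, against 25.4, 28.3 and 22.4 CPM in KO saline muscle. It had 21.9, 22.1, 19.2, 21.6 and 19.9 CPM in WT dexamethasone muscle, against 26.1, 34.1, 25.9 and 23.5 CPM in WT saline muscle. No dexamethasone library reached the saline range in either genotype. Igf2 fell 1.36-fold in KO (log2 fold change -0.45, SE 0.112, adjusted p = 0.00873) and 1.31-fold in WT (log2 fold change -0.39, SE 0.103, adjusted p = 0.00981). Each call was lost without saline replicate 2, at adjusted p = 0.0874 in KO and 0.098 in WT. At 3 h the log2 fold changes were -0.12 in KO (adjusted p = 0.488) and 0.03 in WT (adjusted p = 0.892).

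Igf1 had 26.4, 36.4, 44.3, 38.9 and 42.1 CPM at 3 h in KO dexamethasone muscle, against 33.3, 41.9 and 43.2 CPM in KO saline muscle. WT muscle at 3 h spread widely after dexamethasone, at 33.2, 67.0, 57.9, 29.8 and 43.6 CPM, against 53.1, 49.9 and 55.3 CPM after saline. At 24 h it had 44.1, 32.9, 37.4, 42.6 and 34.8 CPM in KO dexamethasone muscle, against 42.9, 45.3 and 41.95 CPM in KO saline muscle, and 36.8, 34.8, 31.5, 31.9 and 59.0 CPM in WT dexamethasone muscle, against 35.5, 51.9, 47.7 and 43.2 CPM in WT saline muscle. The groups overlapped in all 4 contrasts. Log2 fold changes ran from -0.20 (SE 0.187, 95% interval -0.58 to 0.18, WT at 24 h) to -0.07 (SE 0.204, KO at 3 h), so a fall in WT at 24 h of up to 0.58 on the log2 scale lies within the interval. Without dexamethasone replicate 5, the highest of the 5, the WT value at 24 h was -0.40 (adjusted p = 0.116), and without the libraries whose names start with ML1716 it was -0.41 (adjusted p = 0.157).

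**Figure D3:**
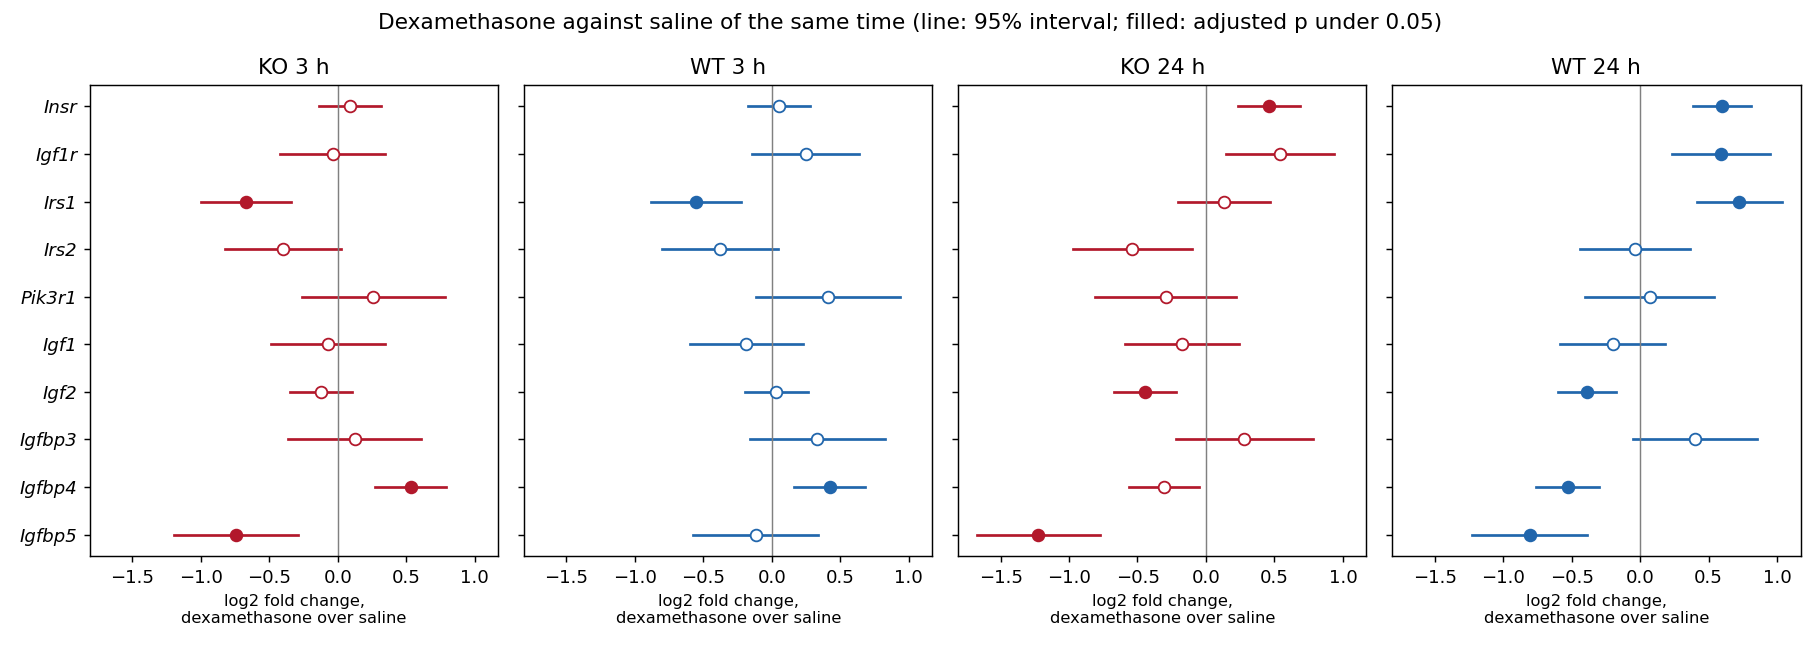
Log2 fold change of dexamethasone over saline of the same time for each member in KO and WT at 3 h and 24 h; points are edgeR estimates, lines are 95% intervals and filled points have an adjusted p under 0.05. Irs1 is to the left of 0 in both 3 h panels and Igfbp4 to the right, while at 24 h Insr is to the right and Igf2 and Igfbp5 to the left in both genotypes.

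Counted over the 10 members, the 3 h contrast called 1 higher and 2 lower in KO, against 9.02% of all tested genes called higher and 8.51% lower, and 1 higher and 1 lower in WT, against 6.77% and 8.16%. At 24 h, 1 was higher and 2 were lower in KO, against 5.87% and 5.02% of all genes, and 3 were higher and 3 lower in WT, against 6.77% and 6.98%. Groups did not overlap for 4 members in KO and 2 in WT at 3 h, where 23.1% and 23.9% of all genes had such groups, and for 3 members in KO and 5 in WT at 24 h, where the shares were 15.8% and 11.8%. The median size of the log2 fold change, whatever its sign, was 0.46 over the members and 0.17 over all genes in WT at 24 h, and 0.38 and 0.20 in KO at 24 h. At 3 h it was 0.19 and 0.20 in KO and 0.29 and 0.18 in WT.

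The question of the series is whether loss of alpha-actinin-3 alters the response to the glucocorticoid. With edgeR, the genotype by treatment interaction called 0 of the 10 members at 3 h and 0 at 24 h, as it called 0% of all genes at both times. At an unadjusted p under 0.05 it held 0 members at 3 h and 1 at 24 h, Irs1, and 460 and 858 of the 13955 genes. DESeq2 and limma-voom also called 0 members; over all genes they called 5 and 8 at 3 h and 3 and 1 at 24 h. The treatment by time interaction called 2 members in KO, where 10.8% of all genes were called, and 3 in WT, where 17.1% were called.

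In saline muscle 1 member, Igfbp4, differed between the genotypes, where 8.99% of all genes were called. It was 1.26-fold lower in KO over both times (log2 difference -0.34, SE 0.0957, adjusted p = 0.023). The call was lost in 6 of 13 fits that left out 1 library, with an adjusted p of up to 0.0878 without KO saline 24 h replicate 2. In saline muscle 3 of 7 adipocyte, 1 of 10 fibroblast and 1 of 9 macrophage markers were also lower in KO and 3 of 7 satellite cell markers higher. The adipocyte markers summed to 154 to 209.5 CPM in KO and 201 to 525.5 CPM in WT saline muscle at 3 h, and to 142 to 252 CPM in KO and 224 to 482 CPM in WT saline muscle at 24 h. The part of these cells in the Igfbp4 difference was not tested.

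Between genotypes after dexamethasone, a comparison added once the values had been seen, 2 members differed, where 12.6% of all genes were called. Igfbp5 was 1.97-fold lower in KO over both times (log2 difference -0.98, SE 0.139, adjusted p = 7.4e-06). All 5 KO libraries at 3 h (502 to 790.3 CPM) lay below all 5 WT libraries (926 to 1576 CPM), and at 24 h the ranges were 219 to 496 CPM in KO and 436 to 883 CPM in WT. In saline muscle the same difference was -0.46 (SE 0.173, adjusted p = 0.0968). Pik3r1 was 1.58-fold lower in KO after dexamethasone (log2 difference -0.66, SE 0.156, adjusted p = 0.00415), with 49.5 to 103 CPM in KO and 71.5 to 234 CPM in WT at 24 h, and -0.40 (SE 0.195, adjusted p = 0.215) in saline muscle. Both calls after dexamethasone held without each of the 20 libraries in turn. In the same comparison 1 of 10 fibroblast, 1 of 5 tendon and 3 of 10 muscle fibre markers were lower in KO and 4 of 7 satellite cell markers higher. The tendon markers summed to 184 to 269 CPM in KO and 253 to 376 CPM in WT dexamethasone muscle at 24 h. The muscle fibre markers summed to 119400 to 149500 CPM in KO and 147700 to 176700 CPM in WT dexamethasone muscle at 24 h. The part of these cells in the Igfbp5 and Pik3r1 differences was not tested.

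Other genes of the pathway were counted in 4 lists. For scale, 9.02% of all tested genes were called higher and 8.51% lower in KO at 3 h, and 6.77% and 8.16% in WT. At 24 h the shares were 5.87% and 5.02% in KO and 6.77% and 6.98% in WT. Of 8 tested genes of the extracellular IGF axis, 3 rose at 3 h in KO and 2 in WT and none fell. They were Stc1 and Stc2, the stanniocalcins, which inhibit the proteases that free IGFs from binding proteins (log2 fold change of Stc1 2.04 in KO and 1.58 in WT, and of Stc2 1.41 and 1.68), and Igfbp7 in KO (0.41). At 24 h none was called in KO and 1 fell in WT, Igfals, a partner of the circulating IGF complex (-0.82). The list's median at 3 h was 0.30 in KO and 0.41 in WT, against 0.01 and 0.00 over all genes. At 24 h it was 0.001 in KO and 0.025 in WT.

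Of 14 tested adaptors, phosphoinositide 3-kinase subunits and kinases down to Akt, 1 fell at 3 h in KO, Pik3r2, a regulatory subunit (-0.53). In WT 3 fell, among them the regulatory subunit gene Pik3r3 (-0.53, adjusted p = 0.034) and the catalytic subunit gene Pik3cb (-0.27). The adjusted p of Pik3cb, 0.0499, was at the edge of the call. None rose at 3 h in either genotype. At 24 h, 2 rose in both genotypes, the catalytic subunit gene Pik3ca (0.70 in KO, adjusted p = 0.000306, and 0.68 in WT, adjusted p = 9.56e-05) and Pdpk1, whose product PDK1 phosphorylates Akt (0.37 in KO and 0.53 in WT). Pik3cd, the leukocyte catalytic subunit gene, fell in WT (-0.67), where 7 of 9 macrophage markers also fell. The part of these cells in the Pik3cd result was not tested. The list's medians at 24 h were 0.03 in KO and 0.10 in WT, against 0.00 and -0.01 over all genes. At 3 h they were -0.14 in KO and -0.06 in WT.

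Of 20 tested brakes on the receptor, the IRS proteins or the lipid signal, 6 rose and 3 fell at 3 h in KO, and 5 rose and 2 fell in WT. Those with the smallest p were the receptor phosphatase gene Ptprf (log2 fold change 1.79 in KO and 2.21 in WT), the phosphatase gene Ptpn1 (0.67 and 0.82), Trib1 (1.495 and 1.83) and Trib2 (-1.77 and -1.72). At 24 h, 2 rose and 1 fell in KO, and 4 rose and 1 fell in WT. Ptprf was again the largest (2.12 in KO, adjusted p = 2.27e-11, and 2.81 in WT, adjusted p = 2.49e-16), Grb14, an adaptor that inhibits the insulin receptor, fell in both (-1.01 and -1.01), and Trim72, a muscle ligase that targets IRS1 for degradation, rose in both (0.56 and 0.42). Inpp4b (0.72) also rose in WT. The list's median was 0.13 in KO and 0.09 in WT at 3 h, against 0.01 and 0.00 over all genes. At 24 h it was -0.04 in KO and 0.10 in WT.

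Of 6 genes that carry the growth hormone signal to Igf1, Socs2, a feedback inhibitor, rose at 3 h in both genotypes (1.23 in KO and 1.15 in WT). At 24 h the receptor gene Ghr fell in KO (-0.47, adjusted p = 0.00679), and Stat5a (0.44) and Stat5b (0.73) rose in WT. The list's medians were -0.39 in KO and -0.06 in WT at 24 h, against 0.00 and -0.01 over all genes. At 3 h they were -0.10 in KO and -0.08 in WT.

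The genes whose pattern over the 8 group means was nearest to that of each member called for dexamethasone were ranked among 10528 genes by the root mean square difference of log2 CPM. Insr itself was nearest to Igf1r (0.07), followed by Pik3ca (0.08) and Rprd1b (0.08). Igf2 lay nearest to Man2b1 (0.02), Sepp1 (0.04) and Ldhb (0.05), and Igfbp4 to Klf13 (0.06), Chchd6 (0.07) and Tcn2 (0.08). Insr lay nearest to Klhl24 (0.06), Sf3b3 (0.06) and Acsl1 (0.07), and Irs1 to Ccdc50 (0.10), Olfr558 (0.11) and Zfp949 (0.11). Igfbp5 lay farther from its neighbours, at 0.17 from Gdap1, 0.21 from Tiam1 and 0.22 from Aebp1. Its own pattern was also larger, with a root mean square about its mean over the groups of 0.62. In the other members ranked this was 0.17 (Igf2) to 0.31 (Irs1), and the distances were not scaled for it. These are descriptions over 8 groups that share libraries.

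The authors' deposited tables give log2 fold changes for all 10 members in the 4 dexamethasone comparisons. By adjusted p, the authors' deposited tables call 1 higher and 2 lower in KO and 0 higher and 1 lower in WT at 3 h, and 2 higher and 3 lower in KO and 3 higher and 4 lower in WT at 24 h. The largest gap from the fit was in Irs2 in WT at 3 h, which the authors' deposited table gives as 0.15 (adjusted p = 0.614), against -0.38 (adjusted p = 0.248) in the fit. For KO at 24 h the authors' deposited table gives Irs2 as -0.87 (adjusted p = 0.00092), against -0.54 (adjusted p = 0.104) in the fit; for WT at 24 h it gives -0.54 (adjusted p = 0.027), against -0.04 (adjusted p = 0.939).

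When the dexamethasone groups were set against saline libraries of both times of the same genotype, an alternative chosen after the data were seen, the fit came closer to the authors' deposited tables. Over 12882 genes the root mean square difference in log2 fold change from the authors' deposited tables was 0.047 and 0.050 at 3 h and 0.058 and 0.044 at 24 h in KO and WT with saline of both times, against 0.144 and 0.161 at 3 h and 0.144 and 0.160 at 24 h with saline of the same time. Irs2 then came to -0.84 in KO at 24 h (adjusted p = 0.00111) and -0.48 in WT at 24 h (adjusted p = 0.0514). Irs1 and Igfbp4 in WT at 3 h were not called in that setting (log2 fold change -0.30, adjusted p = 0.117, and 0.17, adjusted p = 0.266). Irs2 is the only member called between 3 h and 24 h in saline muscle itself, and its value depends most on which saline libraries it is set against.

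**Figure D4:**
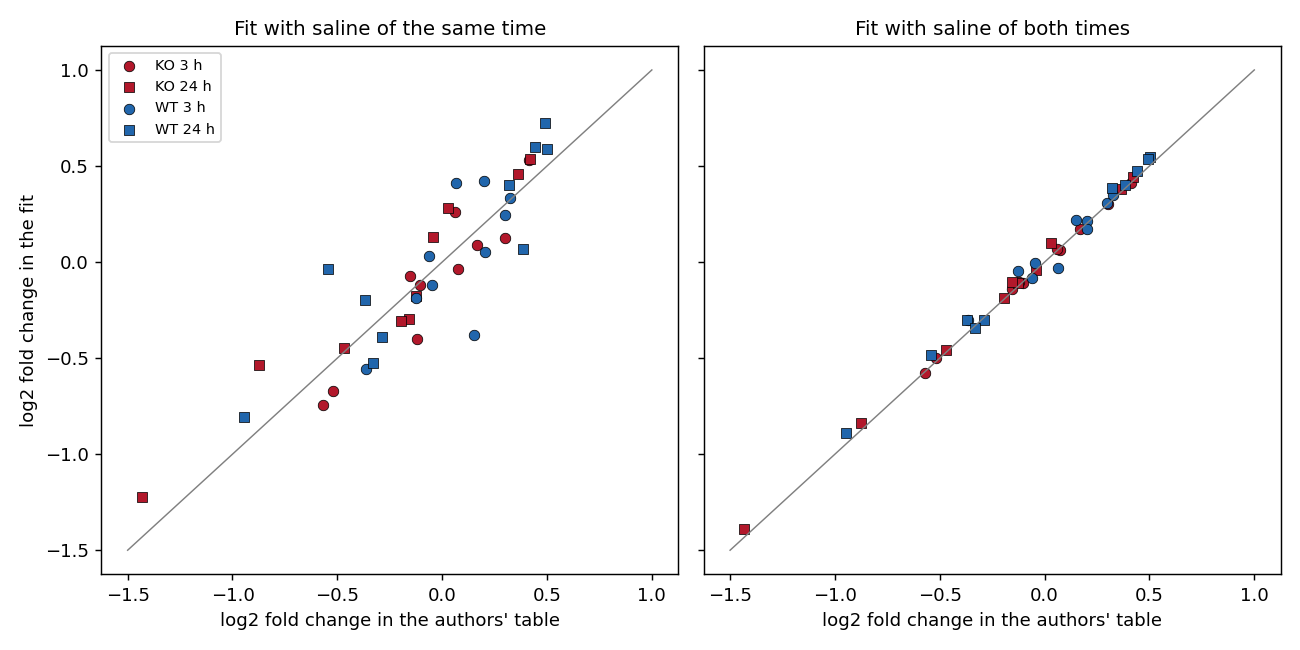
Log2 fold change of the 10 members in the fit (vertical) against the authors' deposited tables (horizontal) in KO and WT at 3 h and 24 h, with the line of equality. With saline of the same time the points scatter around the line, and with saline of both times they lie close to it.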

How the data were processed

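The authors deposited 1 file of raw read counts per gene symbol for each of 33 quadriceps libraries, made from TruSeq RNA libraries per the labels' protocols. Per the submitters' processing notes, limma 3.40.6, STAR, HTSeq and the mm10 build were used. The sources used here give neither the role of each tool nor the annotation or strand setting. The authors also deposited tables with a log2 fold change and an adjusted p-value per gene, with no statement of the contrast coding in the sources used here; they were only set beside the fit. Of all counted reads, 24.6 to 33.2% were in no feature and 0.188 to 0.300% were ambiguous; both lines were left out. The 55 pairs of libraries within groups all differed by more than sampling noise (lowest chi-square over its degrees of freedom 10.9).

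In R 4.3.3 with edgeR 4.0.16, filterByExpr over the 8 groups kept 13955 of 23420 genes. TMM factors ran from 0.932 to 1.09. A quasi-likelihood fit with 8 group means used all 33 libraries, and contrasts were adjusted by Benjamini-Hochberg at a false discovery rate of 0.05. The SE is the size of the log2 fold change divided by the square root of F. Interactions are KO minus WT, or 24 h minus 3 h. The test was checked on simulated counts. Alternatives used DESeq2 1.42.0, limma-voom of limma 3.58.1, other scalings, filters and library subsets. Replicate numbers follow the order of listing. Intervals are at 95% and, like all p-values, cover the spread between these libraries.

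The 10 members and the pathway and marker lists were chosen with earlier results of these data known, so no list is independent evidence. All 10 members are described; of each pathway list, up to 4 called genes with the smallest p per dexamethasone contrast are named, and of each member called for dexamethasone the 3 genes nearest in pattern, skipping genes that have a clone or model number for a name. Of the marker genes, 2 are not in the files under the symbols searched. The values of 1 called pathway gene are not reported here.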

Additional observations from a re-analysis of the deposited data

Results flagged for a closer look

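In 2 of 50 sets of 4 or 5 libraries, a member had 1 library far from the others, where chance alone gives about 1 in 20. Igf1 was 59.0 CPM in replicate 5 of WT dexamethasone at 24 h, against 36.8 CPM in the nearest of the other libraries. Irs2 was lowest in the same library, at 11.8 CPM, against 13.8 CPM in the nearest.

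The dexamethasone effect differed between 24 h and 3 h, by a test of the difference itself, for 2 members in KO and 3 in WT. Irs1 changed by 0.80 on the log2 scale in KO and 1.28 in WT, Igfbp4 by -0.84 in KO and -0.95 in WT, and Insr by 0.55 in WT. The change of Insr in KO was 0.37 and was not called, and whether the time effect itself differs between the genotypes was not tested.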

How the results depend on the processing

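Member values were recomputed with RLE scaling, library totals alone, no filter on low counts, DESeq2, limma-voom with sample weights, only the groups of the contrast, the name series of the libraries (ML1715 or ML1716) as a covariate, without the 5 ML1716 libraries, and without each library in turn. The dexamethasone contrasts were also recomputed against saline of both times. Of the 2370 recomputed log2 fold changes of members from all these settings, none changed sign with a call on either side. Sign changes without a call numbered 96. Of the 2370, 28 lost a call and 36 gained one. Most of the 110 member results were not called as reported, and those could not lose a call. Members called in KO at 24 h numbered 3 as reported, 1 with only the groups of the contrast (Igfbp5), 5 against saline of both times, the alternative chosen after seeing the data, and 4 with DESeq2, limma-voom or the covariate, each adding Igf1r. In WT at 3 h they numbered 2, then 1 with library totals alone and 0 against saline of both times. In WT at 24 h limma-voom called 7 against 6, adding Igfbp3, and in KO at 3 h 4 against 3, adding Irs2. The WT change with time had 3, then 4 with DESeq2, the covariate or no ML1716 libraries, each adding Igf2, and 5 with limma-voom. Saline KO against WT had 1, and 2 with the covariate, with only the contrast's groups and with limma-voom, each adding Igfbp5. Saline 24 h against 3 h had 1, then 2 with library totals alone, the covariate or DESeq2, each adding Igfbp4. It had 2 with no ML1716 libraries, adding Pik3r1, and 3 with only the contrast's groups, adding Igfbp4 and Irs1. With limma-voom it had 5, adding Igfbp4, Irs1, Insr and Pik3r1. Leaving out each library gave counts of 2 to 4 in KO and 0 to 2 in WT at 3 h, 2 to 4 in KO and 5 to 6 in WT at 24 h, 0 for both genotype interactions, 1 to 3 in KO and 3 to 4 in WT for the change with time, 0 to 1 for saline KO against WT, 1 to 2 for saline 24 h against 3 h, and 2 to 3 for KO against WT after dexamethasone. The cause of these shifts was not tested.

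Scaling by library totals moved the share of calls that were higher over all genes to 33.2% in WT at 3 h, against 45.3% as reported, to 38.6% in WT at 24 h, against 49.2%, to 33.7% for saline KO against WT, against 44.7%, and to 62% for saline 24 h against 3 h, against 44.2%. Without the ML1716 libraries the dexamethasone calls of all members stayed as reported. With only the contrast's groups, all genes called in KO at 24 h numbered 730, against 1520 as reported. With 3 to 5 libraries a group, log2 SEs of members in the dexamethasone contrasts were 0.103 to 0.257, which limits how small a difference can be called. No paired analysis was possible because no label numbers the replicates.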
